A study of Mus musculus with 200 samples.

Results

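The Egr transcription factors were followed through the rows of the gene count table named Egr1, Egr2, Egr3 and Egr4, which are 4 of the 56941 genes listed. All 4 passed the filter on low counts in each comparison given here. RNA from one hemisphere per mouse was sequenced for 200 mice after closed-head injury (CHI), a single impact on the intact skull under isoflurane, or after sham surgery, which had the same anaesthesia and scalp incision but no impact. Each sample is 1 mouse, collected 9, 24 or 72 h after surgery. The question was how far each member differed between CHI and sham mice of the same strain and time, and how its sham level differed between times.

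At 9, 24 and 72 h the C57BL/6J strain had 15, 14 and 14 CHI mice and 6 sham mice each. The strain labelled IL-1R1 gKO had 13, 12 and 12 CHI mice and 6 sham mice each, and the strain labelled IL-1R1 eRestore had 12, 9 and 12 CHI mice with 6, 5 and 6 sham mice. The strain labelled IL-1R1 nRestore had 6, 8 and 6 CHI mice with 4, 5 and 5 sham mice. Mice were 3.3 to 7.67 months old and of both sexes, except that all IL-1R1 nRestore mice at 72 h were labelled male. The labels do not say how the alleles of the 3 IL-1R1 strains were made or which cells carry them. The gene-level Il1r1 count, for the receptor named in these labels, had a median of 9.93 CPM (the count scaled to the library's total by TMM, edgeR's scaling) in IL-1R1 gKO mice (6.09 to 17.8, n = 55) and 5.21 in C57BL/6J mice (2.95 to 13, n = 61), so it was not lower in the strain labelled gKO and does not check that label.

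Egr proteins are zinc-finger transcription factors that bind GC-rich sites. Their genes are immediate early genes: synaptic activity and growth factors switch them on within minutes through mitogen-activated protein kinases, which act on serum response factor and its Elk partners, and through CREB. Egr1 is widely used as a mark of recent neuronal activity and is needed for lasting memory, Egr2 also patterns the hindbrain and drives myelination by Schwann cells, Egr3 is needed for muscle spindles and for activity-dependent synaptic change, and Egr4 is induced by activity as well. The Nab proteins are corepressors that bind Egr proteins and limit their activity. In bulk tissue, fewer cells of a type and less RNA per cell cannot be told apart.

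On GRCm39, Egr2 lies on chromosome 10 at 67371305 to 67378018 and Egr3 on chromosome 14 at 70314350 to 70320063, both on the plus strand, and Egr4 lies on chromosome 6 at 85485678 to 85490675 on the minus strand. The annotated canonical transcript of each has 2 exons. The predicted genes Gm66196 and Gm67895 overlap Egr2 and Egr4 on the opposite strand, and since the strand setting of the counting is not given in the sources used here, reads of these pairs cannot be told apart. The sequence before the canonical start is shown for Egr2 and Egr4, since both had lower counts in CHI mice at 9 h. Capitals mark a CArG box, the site that serum response factor binds, and the core TGACG of a CREB site on either strand. Egr1 and Egr3 had no entry in the RefSeq promoter table.

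Egr2, chr10:67373449-67373691, plus strand: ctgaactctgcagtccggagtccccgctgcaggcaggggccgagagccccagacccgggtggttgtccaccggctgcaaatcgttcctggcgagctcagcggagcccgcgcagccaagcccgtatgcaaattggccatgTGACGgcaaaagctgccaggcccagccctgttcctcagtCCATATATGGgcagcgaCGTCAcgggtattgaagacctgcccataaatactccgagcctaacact
Egr4, chr6:85490676-85490821, minus strand: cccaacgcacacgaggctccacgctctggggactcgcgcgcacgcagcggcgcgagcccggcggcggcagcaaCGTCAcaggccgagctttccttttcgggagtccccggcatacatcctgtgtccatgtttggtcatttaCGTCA

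The Egr2 window of 243 bases held 1 CArG box, 65 bases before the start, and 2 TGACG cores, 104 and 48 bases before it. A CArG box was found in 1.45% of 32851 RefSeq promoter windows cut to the same length, and a TGACG core in 17.2%. The shorter Egr4 window held 2 TGACG cores, 73 and 5 bases before the start, which 8.09% of windows of that length shared in at least 1 copy, and no CArG box, which 0.752% held. Neither window held the full palindrome TGACGTCA (1.48% and 0.347% of windows) or the Egr motif GCGNGGGCG (4.49% and 1.73%). Both strands were searched. The sequences were taken from the RefSeq table (GRCm38.p6) and placed on GRCm39 by an exact match. The canonical start, from which positions are counted, lies 7 bases from the RefSeq start for Egr2 and 104 for Egr4. The windows behind the percentages were not matched for distance from the canonical start. For Egr4 in particular, the percentages therefore do not show how common such sites are this close to a start.

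Corrected for transcript length, Egr1 and Egr3 were the abundant members. Egr1 itself lies on chromosome 18 at 34992876 to 34998049 of GRCm39, on the plus strand. Over the 200 mice the median level in TPM, which is corrected for transcript length and library size, was 157.4 for Egr1 (41.86 to 441.3), 90.22 for Egr3 (48.06 to 161.3), 13.9 for Egr4 (5.473 to 38.58) and 4.602 for Egr2 (0.4852 to 24.14). In C57BL/6J sham mice at 9 h the mean level of Egr1 was 310.7 ± 83.16 TPM (SD, n = 6) and that of Egr3 108.3 ± 15.07. In C57BL/6J CHI mice at 9 h they were 125.9 ± 35.03 (n = 15) and 120.4 ± 20.27, so the 2 genes stood at about the same level after CHI. Estimated counts of Egr2 ran from 11 to 1170 per mouse, and those of Egr3 from 1573 to 11813.

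Directions are those of the CHI and sham labels, which were checked with 9 genes known to rise in injured brain, a list chosen after the data were seen. In C57BL/6J mice at 9 h 8 of the 9 were higher in mice labelled CHI and 0 lower by edgeR, beside 7.05% of all genes higher, among them the astrocyte filament gene Gfap at 1.12 ± 0.16 (adjusted P = 9.14e-05) and the acute-phase gene Lcn2 at 3.79 ± 0.45 (5.25e-06) on the log2 scale, and Socs3 stood at 0.39 ± 0.17 (0.142). Of those tested, edgeR called 0 of 8 as higher in IL-1R1 gKO mice, 1 of 7 in IL-1R1 eRestore mice and 1 of 7 in IL-1R1 nRestore mice. Of all genes, 0.0723%, 4.1% and 0.345% were called higher, and 0 of the listed genes were called lower. The log2 fold change was positive in 8 of 8, 6 of 7 and 7 of 7.

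At 9 h in C57BL/6J mice, Egr2, Egr1 and Egr4 were lower after CHI and Egr3 was not. Egr2 had a median of 2.613 CPM in the 15 CHI mice (0.8701 to 6.343) and of 18.83 in the 6 sham mice (10.12 to 28.27). All CHI mice therefore lay below all sham mice, an order shown by 60 of 16967 genes in this comparison (0.354%). Egr4 ran from 5.606 to 18.38 CPM after CHI (median 13.57) and from 17.08 to 37.35 after sham surgery (median 33.63), and 12 of 15 CHI mice lay below every sham mouse. For Egr1 this held in 14 of 15 CHI mice, whose levels ran from 107.1 to 347 CPM against 312.4 to 754.5 in sham mice. Egr3 overlapped widely, from 169.6 to 306.8 CPM after CHI (median 226.2) and from 169.1 to 234 after sham surgery (median 204.4), and 5 CHI mice stood above every sham mouse.

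**Figure D1:**
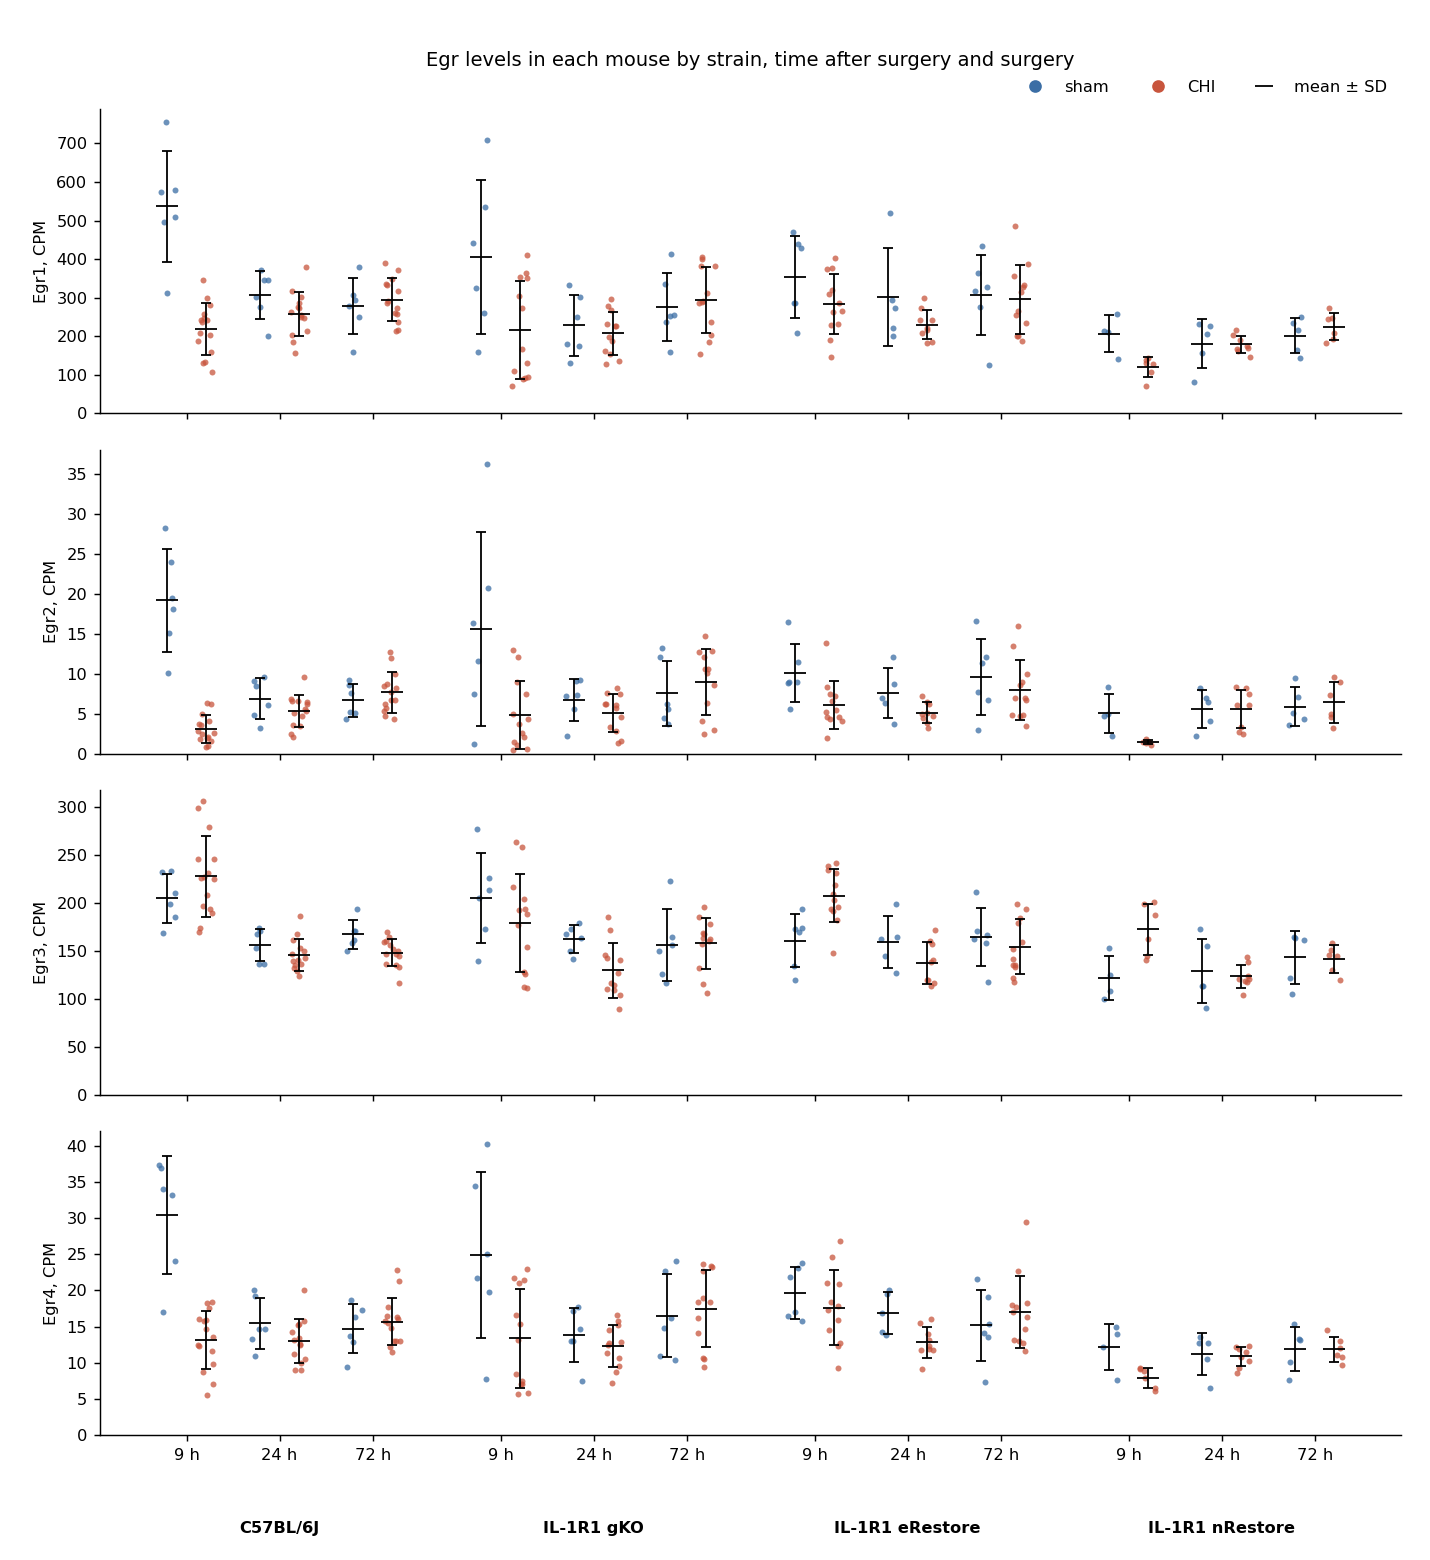
TMM-normalised CPM of each Egr gene in each of the 200 mice (points) by strain, time after surgery and surgery, with the group mean and SD (bars), on linear axes that start at 0. In C57BL/6J mice at 9 h all 15 CHI points of Egr2 lie below the 6 sham points, whereas those of Egr3 run from 169.6 to 306.8 CPM around the sham points.

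In the edgeR fit with sex and age as covariates, the log2 fold change of CHI over sham was −2.69 ± 0.23 (SE) for Egr2 (adjusted P = 2.54e-07), −1.33 ± 0.15 for Egr1 (adjusted P = 7.37e-06) and −1.23 ± 0.12 for Egr4 (adjusted P = 5.42e-07). Mean Egr2 was 6.21 times higher in sham than in CHI mice, mean Egr1 2.45 times and mean Egr4 2.31 times. For Egr3 the log2 fold change was 0.14 ± 0.11 (adjusted P = 0.438). Thus 3 of the 4 members passed the threshold of an adjusted P under 0.05, all lower in CHI mice, while 14.1% of all genes tested passed it and 7% were lower. DESeq2 also called 3. Leaving out any 1 sham mouse kept the 3 calls.

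In IL-1R1 gKO mice at 9 h the same members had negative log2 fold changes but wide errors. The median of Egr2 was 3.742 CPM in 13 CHI mice (0.4999 to 12.94) and 13.97 in 6 sham mice (1.285 to 36.25), with a log2 fold change of −1.66 ± 0.51 (adjusted P = 0.214). Egr1 ran from 71.39 to 409.3 CPM after CHI and from 159.4 to 708.5 after sham surgery, at −0.86 ± 0.25 (adjusted P = 0.176). Egr4 stood at −0.84 ± 0.23 (adjusted P = 0.147) and Egr3 at −0.15 ± 0.12 (adjusted P = 0.725). The arms overlapped for every member, and edgeR called 0 of 4 against 0.199% of all genes (0.126% lower). DESeq2 called 2 of 4, namely Egr2 (adjusted P = 0.0379) and Egr4 (adjusted P = 0.0324). With experiment in place of age edgeR called Egr4, at −0.81 ± 0.17 (adjusted P = 0.0343), and in the fit of all time points it called Egr2, at −1.65 ± 0.44 (adjusted P = 0.0351), so the calls in this strain depend on the model.

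In IL-1R1 eRestore mice at 9 h Egr2 was lower after CHI, and Egr1 and Egr4 were not called. Its median was 5.379 CPM in 12 CHI mice (1.965 to 13.86) and 8.97 in 6 sham mice (5.679 to 16.46), and 7 CHI mice lay below every sham mouse. Its log2 fold change was −0.68 ± 0.17 (adjusted P = 0.0241). Egr1 gave −0.30 ± 0.17 (adjusted P = 0.291) and Egr4 −0.13 ± 0.15 (adjusted P = 0.602). Egr3 had a positive value, 0.35 ± 0.11 (adjusted P = 0.0503), with 8 of 12 CHI mice above every sham mouse. By edgeR 1 of 4 members was called, against 7.34% of all genes, 3.24% lower. The Egr2 call was lost without sham replicate 1 (adjusted P = 0.08), 2 (0.0554) or 3 (0.0537), without covariates (0.137) and in the fit of all time points (0.108), and the largest experiment alone did not give it. Egr3 passed as higher in DESeq2 (adjusted P = 0.0278), without covariates (0.0472), in the fit of all time points (0.0486) and without sham replicate 6 (0.0218).

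In IL-1R1 nRestore mice at 9 h the 6 CHI mice had 1.866, 1.109, 1.48, 1.399, 1.437 and 1.633 CPM of Egr2 and the 4 sham mice 4.727, 8.325, 4.983 and 2.297. The arms did not overlap, an order that 2.42% of all genes showed in this comparison. The log2 fold change was −1.45 ± 0.27 (adjusted P = 0.0279). Mean Egr1 was 120 ± 26.86 CPM (SD) after CHI and 206 ± 47.98 after sham surgery, at −0.73 ± 0.29 (adjusted P = 0.35), and Egr4 stood at −0.56 ± 0.19 (adjusted P = 0.212). Egr3 was again the member with a positive value, from 140.2 to 201 CPM against 100.3 to 152.6, at 0.41 ± 0.16 (adjusted P = 0.328). The 1 call of 4 stood against 0.608% of all genes, 0.262% lower, and was lost without sham replicate 1 (adjusted P = 0.0846) or 3 (log2 fold change −1.12, adjusted P = 0.359). Without the filter on low counts all 4 members were called in this strain, and 2 were called in the fit of all time points. Egr1 without the filter stood at −0.72 with an SE of 0.09, against the SE of 0.29 above. The share of all genes called in these 2 fits is not given here, so the counts have no background beside them. The mitochondrial share of counts did not overlap between these arms (6.85 to 7.97% after CHI, 6.35 to 6.77% after sham surgery), and its part in the result was not tested.

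Fitted over the 68 mice of all strains at 9 h with 1 common CHI effect, Egr2 fell by 1.81 ± 0.23 on the log2 scale (adjusted P = 6.9e-09), Egr1 by 0.90 ± 0.14 (adjusted P = 8.49e-07) and Egr4 by 0.79 ± 0.13 (adjusted P = 4.01e-06). Egr3 gave 0.15 ± 0.07 (adjusted P = 0.101), but with experiment in place of age it passed as higher, at 0.18 ± 0.07 (adjusted P = 0.0476). The 3 calls of 4 compare with 23.9% of all genes, 11.9% lower. Whether CHI acted to a different extent in C57BL/6J mice and in each other strain was tested as an interaction, and none of 12 values passed. They ran from −0.29 to 1.96, and 3 had an unadjusted P under 0.05, all of IL-1R1 eRestore mice: Egr2 at 1.96 ± 0.57 (adjusted P = 0.186), Egr4 at 1.06 ± 0.33 (0.244) and Egr1 at 0.98 ± 0.36 (0.369). Of all genes, 0% differed in IL-1R1 gKO, 0.0107% in IL-1R1 eRestore and 0.00534% in IL-1R1 nRestore mice. So the smaller values in these strains were not shown to differ from those of C57BL/6J mice. The interaction with sex at 9 h ran from −0.10 to −0.04 over the members, with 0 of 4 called, 0 at an unadjusted P under 0.05 and 0% of all genes called.

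**Figure D2:**
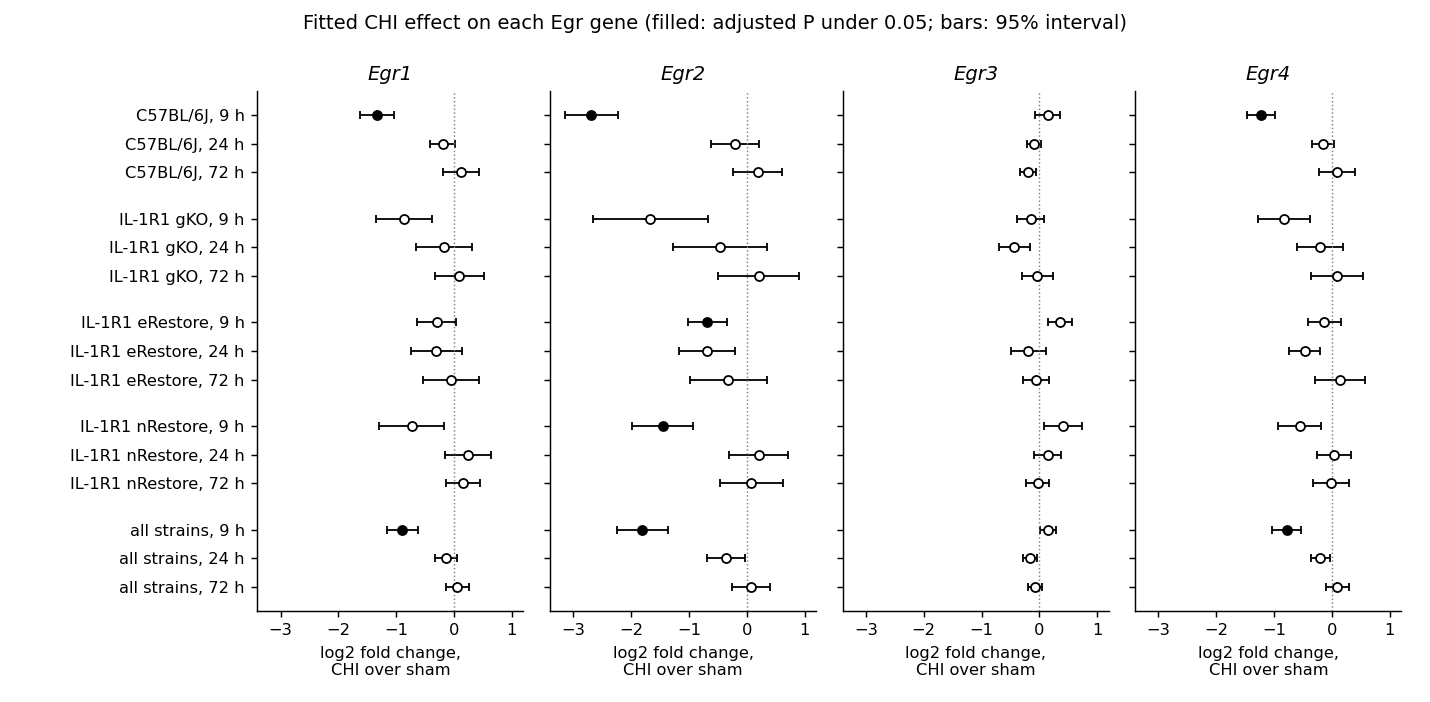
Fitted log2 fold change of CHI over sham for each Egr gene (points) with its 95% interval (bars), by strain and time and for all strains together. Filled points have an adjusted P under 0.05: Egr2 in 3 of the 4 strains at 9 h, and Egr1 and Egr4 in C57BL/6J mice; those for all strains together lie at −1.81, −0.90 and −0.79, and no point is filled at 24 or 72 h.

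The size of the 9 h difference varied between the experiments named in the labels, in which mice of several strains were handled. The mean log2 CPM (prior count 0.5) of Egr2 in C57BL/6J mice was lower after CHI in experiment eIL-1-76 (−2.74, 10 CHI and 4 sham mice) and in eIL-1-80 (−2.83, 5 and 2 mice), and Egr4 gave −1.25 and −1.19 there. In IL-1R1 gKO mice the Egr2 difference was −0.28 in eIL-1-76 (4 and 2 mice), −2.46 in eIL-1-80 (3 and 2 mice) and −1.67 in TM-2-33 (6 and 2 mice). In IL-1R1 eRestore mice it was −0.43 in eIL-1-76 (8 and 3 mice) and −1.44 in eIL-1-80 (4 and 3 mice). Egr1 followed the same order, at −0.18, −1.22 and −1.09 in IL-1R1 gKO mice and −0.08 and −0.79 in IL-1R1 eRestore mice. Egr2, Egr1 and Egr4 were lower after CHI in each of the 8 strain and experiment sets, with Egr4 between −1.25 and −0.07, whereas Egr3 ran from −0.28 to 0.51. In the largest eRestore experiment alone the Egr2 value was −0.53 ± 0.34 (adjusted P = 0.458).

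**Figure D3:**
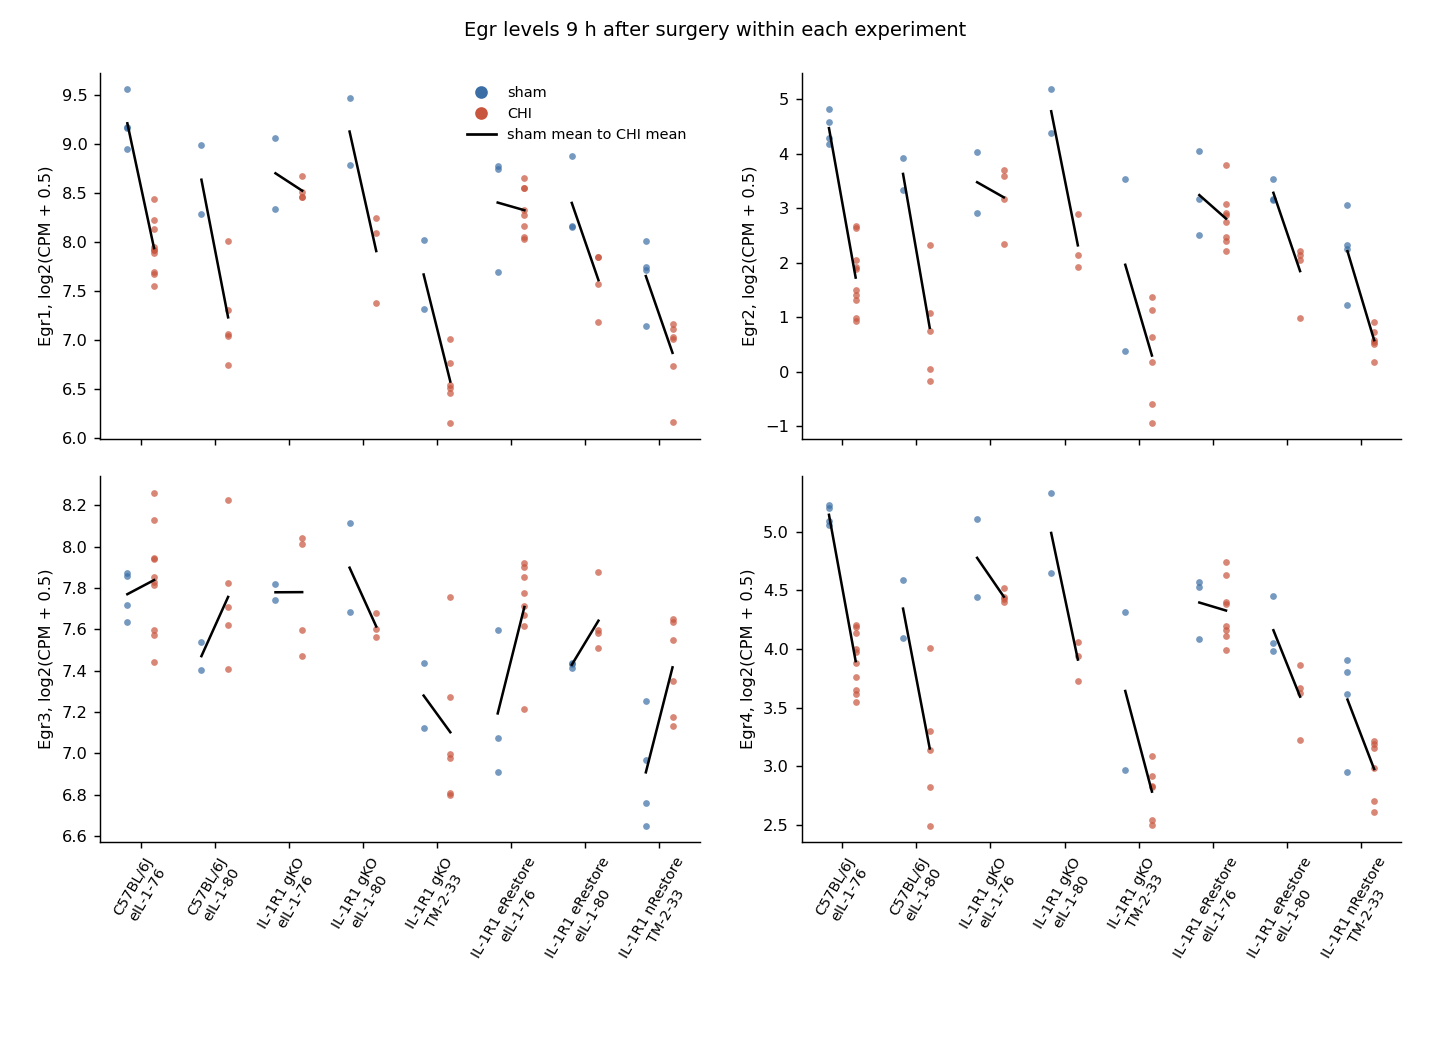
Log2 CPM (prior count 0.5, written as CPM + 0.5 on the axes) of each Egr gene at 9 h in each mouse (points), grouped by strain and experiment, with a line from the sham mean to the CHI mean. The axes do not start at 0. The lines of Egr1, Egr2 and Egr4 fall in all 8 sets, with Egr2 differences from −2.83 (C57BL/6J, eIL-1-80) to −0.28 (IL-1R1 gKO, eIL-1-76), and those of Egr3 run from −0.28 to 0.51.

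Mice of experiment TM-2-33 had low levels in both arms. Its IL-1R1 gKO mice had 71.39 to 129.4 CPM of Egr1 after CHI and 159.4 and 260.3 after sham surgery, against 351.4 to 409.3 and 324 and 536.3 in eIL-1-76. All IL-1R1 nRestore mice at 9 h belonged to TM-2-33, which held no C57BL/6J mice, so their levels can be compared within an experiment only with its IL-1R1 gKO mice. Mean sham Egr1 there was 209.9 CPM in IL-1R1 gKO and 206 in IL-1R1 nRestore mice, against 430.1 in IL-1R1 gKO sham mice of eIL-1-76 and 575.6 in those of eIL-1-80. The nRestore sham mice at 9 h were 3.3 to 4 months old and the C57BL/6J sham mice 4.4 to 4.8.

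Each of the other members was also expressed as a log2 ratio to Egr3 within the same mouse, which needs no scaling between libraries. Egr3 was taken as the denominator after its values were seen, so the ratios restate how far the members moved apart and are given as a description, with no test. In C57BL/6J mice at 9 h the mean ratio of Egr2 to Egr3 differed between CHI and sham mice by −2.91, that of Egr1 by −1.46 and that of Egr4 by −1.37, and for all 3 ratios the 15 CHI mice lay below the 6 sham mice. The share of all genes whose ratio to Egr3 separates the arms in this way is not given. In IL-1R1 nRestore mice the differences were −2.14 for Egr2, −1.29 for Egr1 and −1.10 for Egr4, again without overlap. Mean Egr3 itself was 172.5 CPM after CHI there and 121.6 after sham surgery. By their own levels, 5 of these 6 CHI mice lay below every sham mouse for Egr1 and 2 for Egr4. The differences of the ratios in the other strains were smaller. They were −1.15, −0.69 and −0.57 in IL-1R1 eRestore and −1.53, −0.79 and −0.69 in IL-1R1 gKO mice, where the arms overlapped. At 24 h the 12 differences ran from −0.27 to 0.24 and at 72 h from −0.12 to 0.37.

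**Figure D4:**
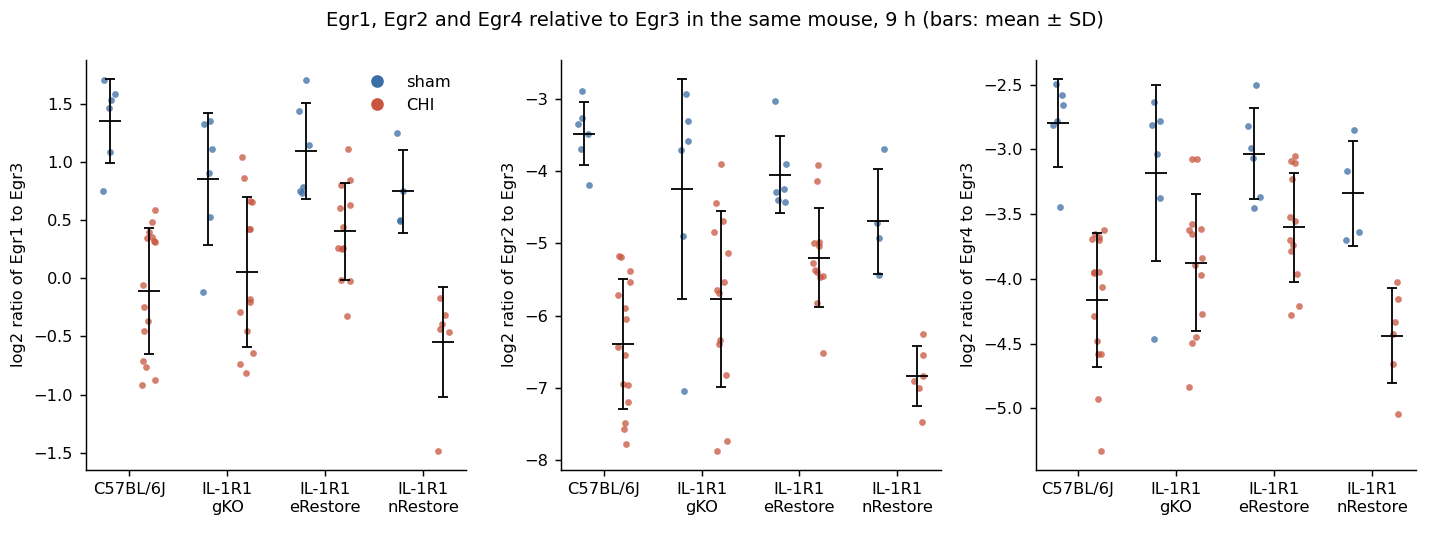
Log2 ratio of Egr1, Egr2 and Egr4 to Egr3 within each mouse at 9 h (points) by strain and surgery, with mean and SD (bars); the axes do not start at 0. In C57BL/6J mice all 15 CHI points lie below the 6 sham points in each panel. In IL-1R1 nRestore mice all 6 lie below the 4 sham points. The share of all genes whose ratio to Egr3 does the same is not given.

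At 24 and 72 h no member passed the threshold between CHI and sham mice. At 24 h the 16 log2 fold changes of the 4 strains ran from −0.69 to 0.24 (SE 0.06 to 0.41), with 12 negative, 0 called by edgeR or DESeq2, and 3 at an unadjusted P under 0.05 (lowest adjusted P = 0.282, Egr3 in IL-1R1 gKO mice). The lowest of them was Egr2 in IL-1R1 eRestore mice, from 3.247 to 7.246 CPM in 9 CHI mice and 3.714 to 12.16 in 5 sham mice. At 72 h they ran from −0.32 to 0.20, with 7 negative, 0 called by either tool and 1 at an unadjusted P under 0.05 (lowest adjusted P = 0.803). Over all strains the values were −0.36 to −0.14 at 24 h (lowest adjusted P = 0.22) and −0.08 to 0.09 at 72 h (lowest adjusted P = 0.854). Few genes of any kind were called at these times: at 24 h 0.404% in C57BL/6J, 0.0059% in IL-1R1 gKO and 0% in IL-1R1 eRestore and IL-1R1 nRestore mice, and 1.48% over all strains. At 72 h it was 0% in C57BL/6J and IL-1R1 gKO, 0.00605% in IL-1R1 eRestore and 0.0121% in IL-1R1 nRestore mice, and 0.706% over all strains. At 24 h, 5 of 12 IL-1R1 gKO, 4 of 9 IL-1R1 eRestore and 4 of 8 IL-1R1 nRestore CHI mice came from experiment NiL-1-21. That experiment held no sham mice of these strains. The CHI mice were up to 7.4, 7.4 and 7.2 months old and the sham mice up to 5.3. Surgery, experiment and age thus cannot be fully told apart in these strains at 24 h, although age was a covariate.

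The change of the CHI effect between times was tested as a contrast. The 9 h effect in C57BL/6J mice was lower than the 24 h effect for Egr2, by −2.31 ± 0.39 (adjusted P = 6.21e-05), Egr1, by −1.10 ± 0.24 (0.00267), and Egr4, by −1.01 ± 0.24 (0.00635), but not for Egr3, at 0.23 ± 0.12 (0.334). Against 72 h the differences were −2.96 ± 0.40, −1.47 ± 0.25 and −1.40 ± 0.25 for Egr2, Egr1 and Egr4 (adjusted P at most 0.000105) and 0.33 ± 0.12 for Egr3 (0.0945). Of all genes, 5.05% and 6.92% passed these 2 contrasts. In IL-1R1 nRestore mice the 8 values ran from −1.92 to 0.55, and none passed adjustment (lowest 0.158), where 0.114% and 0.18% of all genes did. All 8 had an unadjusted P under 0.05, but they are 4 genes in 2 contrasts that share the 9 h mice. They are therefore not 8 separate results. Shares of all genes here are at the adjusted threshold, so the counts at an unadjusted P have no background beside them. In IL-1R1 gKO mice they ran from −1.73 to 0.35 (lowest adjusted P = 0.365, 3 at an unadjusted P under 0.05; 0.349% and 0.0776% of all genes). In IL-1R1 eRestore mice they ran from −0.43 to 0.61 (lowest adjusted P = 0.189, 2 at an unadjusted P under 0.05; 0.195% and 0.551% of all genes).

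Sham levels themselves differed between times in C57BL/6J mice, where all 4 members were higher at 9 h than later. Mean Egr2 was 19.19 ± 6.42 CPM (SD) in sham mice at 9 h, 6.909 ± 2.586 at 24 h and 6.705 ± 2.041 at 72 h (n = 6 each). Mean Egr1 was 537.3 ± 143.8, 307.3 ± 62.78 and 278.5 ± 72.18, mean Egr4 30.44 ± 8.109, 15.47 ± 3.504 and 14.72 ± 3.397, and mean Egr3 205 ± 25.68, 156.3 ± 16.94 and 167.6 ± 15.11. The log2 difference of 9 h from 24 h was 1.50 ± 0.27 for Egr2 (adjusted P = 0.00126), 0.99 ± 0.19 for Egr4 (0.00166), 0.81 ± 0.19 for Egr1 (0.00674) and 0.39 ± 0.08 for Egr3 (0.00221). From 72 h it was between 0.28 for Egr3 (0.018) and 1.53 for Egr2 (0.00106). All 8 values passed, while 23.4% and 25.5% of all genes did. Mice at 9 h were collected at another time of day than the later mice, and no experiment held both, so time after surgery, time of day and experiment cannot be told apart for these levels. Summed markers of striatal neurons in these sham mice ran from 90.2 to 300 TPM at 9 h, 470 to 802 at 24 h and 524 to 909 at 72 h. Those of cortical excitatory neurons ran from 339 to 483, 246 to 319 and 236 to 348 TPM. The part of this tissue content in the Egr differences was not tested.

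In sham mice of the other 3 strains the differences ran from −0.11 to 1.17, with 0 of 24 called by edgeR and 4 at an unadjusted P under 0.05, all of IL-1R1 gKO mice (lowest adjusted P = 0.106). Of all genes, 14.1% and 4.64% passed in IL-1R1 gKO, 1.47% and 5.12% in IL-1R1 eRestore and 5.91% and 0.346% in IL-1R1 nRestore mice. Median summed striatal markers at 9 and 24 h were 208 and 592, 257 and 721, and 500 and 856 TPM in these sham mice. Their part in the Egr levels was not tested. Mean sham Egr2 at 9, 24 and 72 h was 15.64 ± 12.17, 6.786 ± 2.617 and 7.602 ± 4.078 CPM in IL-1R1 gKO, 10.08 ± 3.64, 7.584 ± 3.126 and 9.599 ± 4.759 in IL-1R1 eRestore, and 5.083 ± 2.477, 5.612 ± 2.409 and 5.93 ± 2.41 in IL-1R1 nRestore mice. For Egr1, Egr2 and Egr4 the 9 h sham mean of C57BL/6J mice was the highest of the strains, but no sham difference between a strain and C57BL/6J was called at any time. At 9 h these ran from −0.38 to 0.07 in IL-1R1 gKO, from −1.04 to −0.40 in IL-1R1 eRestore (3 of 4 at an unadjusted P under 0.05) and from −1.64 to −0.39 in IL-1R1 nRestore mice (4 of 4), beside 0.364%, 0.889% and 0.202% of all genes called. The nRestore mice at 9 h shared no experiment with C57BL/6J mice, so strain and experiment cannot be told apart in that difference. At 24 h 3 of 4 members in IL-1R1 nRestore mice had an unadjusted P under 0.05 and no other did; 1.02%, 0.131% and 0.674% of all genes were called in the 3 strains, and 0.179%, 0.271% and 0.271% at 72 h.

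In C57BL/6J CHI mice Egr3 was higher at 9 h than later, Egr2 was lower, and Egr1 was lower than at 72 h and Egr4 was not called. Egr3 in these mice had a median of 226.2 CPM at 9 h (169.6 to 306.8, n = 15), 141.6 at 24 h (124.2 to 186.4, n = 14) and 148.6 at 72 h (116.7 to 169.6, n = 14), with log2 differences of 0.63 ± 0.07 (adjusted P = 2.01e-10) and 0.62 ± 0.07 (1.98e-10). Mean Egr2 in these mice was 3.09 ± 1.721, 5.356 ± 2 and 7.716 ± 2.551 CPM (SD), with differences of −0.77 ± 0.23 (0.00426) and −1.29 ± 0.23 (7.33e-06). Egr1 differed from 72 h only, by −0.43 ± 0.14 (0.00606), and Egr4 from neither time (0.02 and −0.25, adjusted P = 0.922 and 0.114). These 5 calls of 8 came where 61.7% and 64.3% of all genes were called, so that a call here says little of the Egr genes in particular.

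Egr3 was also higher at 9 h than at 24 h in CHI mice of IL-1R1 gKO (0.50 ± 0.13, adjusted P = 0.00267), IL-1R1 eRestore (0.58 ± 0.10, 1.72e-05) and IL-1R1 nRestore mice (0.48 ± 0.08, 0.000125). It was higher at 9 h than at 72 h in IL-1R1 eRestore (0.41 ± 0.09, 0.000459) and IL-1R1 nRestore mice (0.44 ± 0.13, 0.0244) but not in IL-1R1 gKO mice (0.18 ± 0.13, 0.282). In IL-1R1 nRestore CHI mice the other 3 members were lower at 9 h than at both later times, Egr2 by −1.90 ± 0.32 and −2.02 ± 0.51 (adjusted P = 0.000191 and 0.0133). Without the filter on low counts edgeR no longer called Egr1 against 72 h (adjusted P = 0.0555). These mice were 5 females and 1 male at 9 h, 7 and 1 at 24 h, and 6 labelled males at 72 h. The sex term in the 72 h contrast thus rests on 1 male at 9 h and 1 at 24 h. In IL-1R1 eRestore CHI mice Egr4 was higher at 9 h than at 24 h (0.47 ± 0.16, 0.0194), and no other value passed there or in IL-1R1 gKO mice. Of all genes, 40.2% and 36.4% were called in IL-1R1 gKO, 42.9% and 46.3% in IL-1R1 eRestore and 31% and 13.2% in IL-1R1 nRestore mice. The same limit of collection time and experiment holds for these levels.

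Ordered by mean level over the 24 groups of strain, surgery and time, Egr1, Egr2 and Egr4 were highest in C57BL/6J sham mice at 9 h, then in IL-1R1 gKO and IL-1R1 eRestore sham mice at 9 h, and lowest in IL-1R1 nRestore CHI mice at 9 h. The highest mean was 12.91 times the lowest for Egr2, 4.478 times for Egr1 and 3.827 times for Egr4, but 1.875 times for Egr3, whose means ran from 121.6 CPM in IL-1R1 nRestore sham mice at 9 h to 228 in C57BL/6J CHI mice at 9 h. Most neighbours in this order did not differ beyond their spread. Of 23 neighbouring pairs per gene the gap exceeded the larger SD in 1 for Egr1 and 1 for Egr4, both between IL-1R1 nRestore CHI mice at 24 and 9 h, and in 0 for Egr2 and Egr3. Egr2 also varied most between mice of a group, with a median coefficient of variation of 42.05% (17 to 87.7%), against 27.35% for Egr1, 25.75% for Egr4 and 17% for Egr3 (8.75 to 28.4%).

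Across the 24 group means of log2 CPM, Pearson's r was 0.965 between Egr1 and Egr4, 0.902 between Egr1 and Egr2 and 0.874 between Egr2 and Egr4, but 0.403, 0.104 and 0.488 between Egr3 and Egr1, Egr2 and Egr4. Across the deviations of the 200 mice from their group means, Egr3 correlated with these 3 members at 0.618, 0.462 and 0.583. The points share libraries, experiments and normalisation, and r is given as a description. The genes most alike were ranked among 19580 genes, with the members left out of the ranking. The genes with group means most like Egr1 were Dusp6 (0.95), Fos (0.942), Etv5 (0.923), Sik1 (0.917) and Nr4a3 (0.916). Those most like Egr4 were Dusp6 (0.951), Fosl2 (0.941), Fos (0.938), Nr4a3 (0.932) and Etv5 (0.912). Fos (0.936), Nr4a3 (0.912), Nr4a1 (0.896), Arc (0.886) and Sik1 (0.882) were most like Egr2. A separate set stood nearest to Egr3, namely Gfod1 (0.916), Dlgap4 (0.91), Ier5 (0.903), Wipf2 (0.902) and Crkl (0.897). By deviations within groups the nearest to Egr3 were Fosb (0.741), Fmnl1 (0.718), Homer1 (0.709), Lingo1 (0.69) and Nptx2 (0.68).

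The other rapid-response transcription factors moved with Egr1, Egr2 and Egr4 in C57BL/6J mice. Of 12 listed, 11 were lower at 9 h after CHI and 0 higher, where 7% of all genes were lower, and their median log2 fold change was −0.965 beside −0.01 for all genes tested. Among them Nr4a3, an orphan nuclear receptor, gave −1.30 ± 0.12 (adjusted P = 1.94e-07), Fosl2, an AP-1 subunit, −0.89 ± 0.10 (1.01e-06), Fos, the AP-1 subunit that marks active neurons, −1.79 ± 0.18 (1.91e-06), and the nuclear receptor Nr4a1 −1.52 ± 0.16 (5.21e-06). The gene outside this pattern, named after its values were seen, was Atf3, a factor of stressed and injured neurons, at 0.41 ± 0.30 (adjusted P = 0.399). Over all strains at 9 h 11 of 12 were lower, beside 11.9% of all genes, with a median of −0.536. Within the other strains edgeR called 0 of 12, with 7 at an unadjusted P under 0.05 in IL-1R1 gKO, 3 in IL-1R1 eRestore and 4 in IL-1R1 nRestore mice, and medians of −0.492, −0.179 and −0.3. None of the strain differences of the list was called (lowest adjusted P = 0.188).

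Of the Egr corepressors, Nab2, itself induced by Egr proteins, was lower at 9 h in C57BL/6J CHI mice, at −0.48 ± 0.08 (adjusted P = 0.000248), and Nab1 stood at −0.06 ± 0.06 (0.535). Over all strains Nab2 gave −0.28 ± 0.07 (0.000741). Within the other strains its values were −0.33 ± 0.13 in IL-1R1 gKO (0.361), −0.23 ± 0.12 in IL-1R1 eRestore (0.249) and 0.11 ± 0.15 in IL-1R1 nRestore mice (0.812), none past the threshold.

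Of 13 genes described as Egr targets 12 were tested, since Fasl did not pass the filter, and in C57BL/6J mice at 9 h 3 were lower and 1 higher after CHI, beside 7% and 7.05% of all genes. Arc, which removes AMPA receptors from synapses, gave −1.64 ± 0.20 (adjusted P = 2e-05), the neurotrophin Bdnf −0.76 ± 0.08 (1.12e-06) and Cdk5r1, which activates the kinase Cdk5, −0.22 ± 0.05 (0.00335). Ache, which breaks down acetylcholine, was higher at 0.24 ± 0.05 (0.00342). The other 8 did not pass, and the median of the 12 was 0.096. Over all strains 3 were lower (the same 3 genes) and 2 higher, Ache and Cd44, beside 11.9% and 12% of all genes. In IL-1R1 eRestore mice 1 of 12 was called, near the 7.34% of all genes, and this was Cd44, a hyaluronan receptor, named after its values were seen, higher at 0.87 ± 0.25 (0.044). In IL-1R1 gKO and IL-1R1 nRestore mice 0 of 12 were called, beside 0.199% and 0.608% of all genes, with 4 and 2 at an unadjusted P under 0.05.

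Of the 13 genes that act upstream of Egr transcription, few passed in single strains, at shares near those of all genes in C57BL/6J mice. At 9 h 0 of them were lower and 2 higher after CHI in C57BL/6J mice, where 7.05% of all genes were higher and 7% lower, Mrtfa, a cofactor of serum response factor, at 0.45 ± 0.10 (adjusted P = 0.00362) and the kinase gene Rps6ka5 at 0.27 ± 0.08 (0.0172). Elk1, a partner of serum response factor, gave 0.22 ± 0.08 (0.0608) and Mrtfb, a second cofactor, 0.16 ± 0.07 (0.138). The median of the 13 was −0.04. Over all strains 5 of 13 were higher and 0 lower, beside 12% of all genes higher, namely Elk1 at 0.25 ± 0.05 (7.31e-05), Mrtfa, Mrtfb, Rps6ka5 and, named after its values were seen, Crtc1, a coactivator of CREB. In IL-1R1 eRestore mice 3 were higher, beside 4.1% of all genes, Mrtfb at 0.41 ± 0.06 (0.000251), Elk1 at 0.35 ± 0.08 (0.0134) and Mrtfa at 0.24 ± 0.06 (0.0189). In IL-1R1 gKO and IL-1R1 nRestore mice 0 of 13 were called, beside 0.199% and 0.608% of all genes, with 0 and 2 at an unadjusted P under 0.05.

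**Figure D5:**
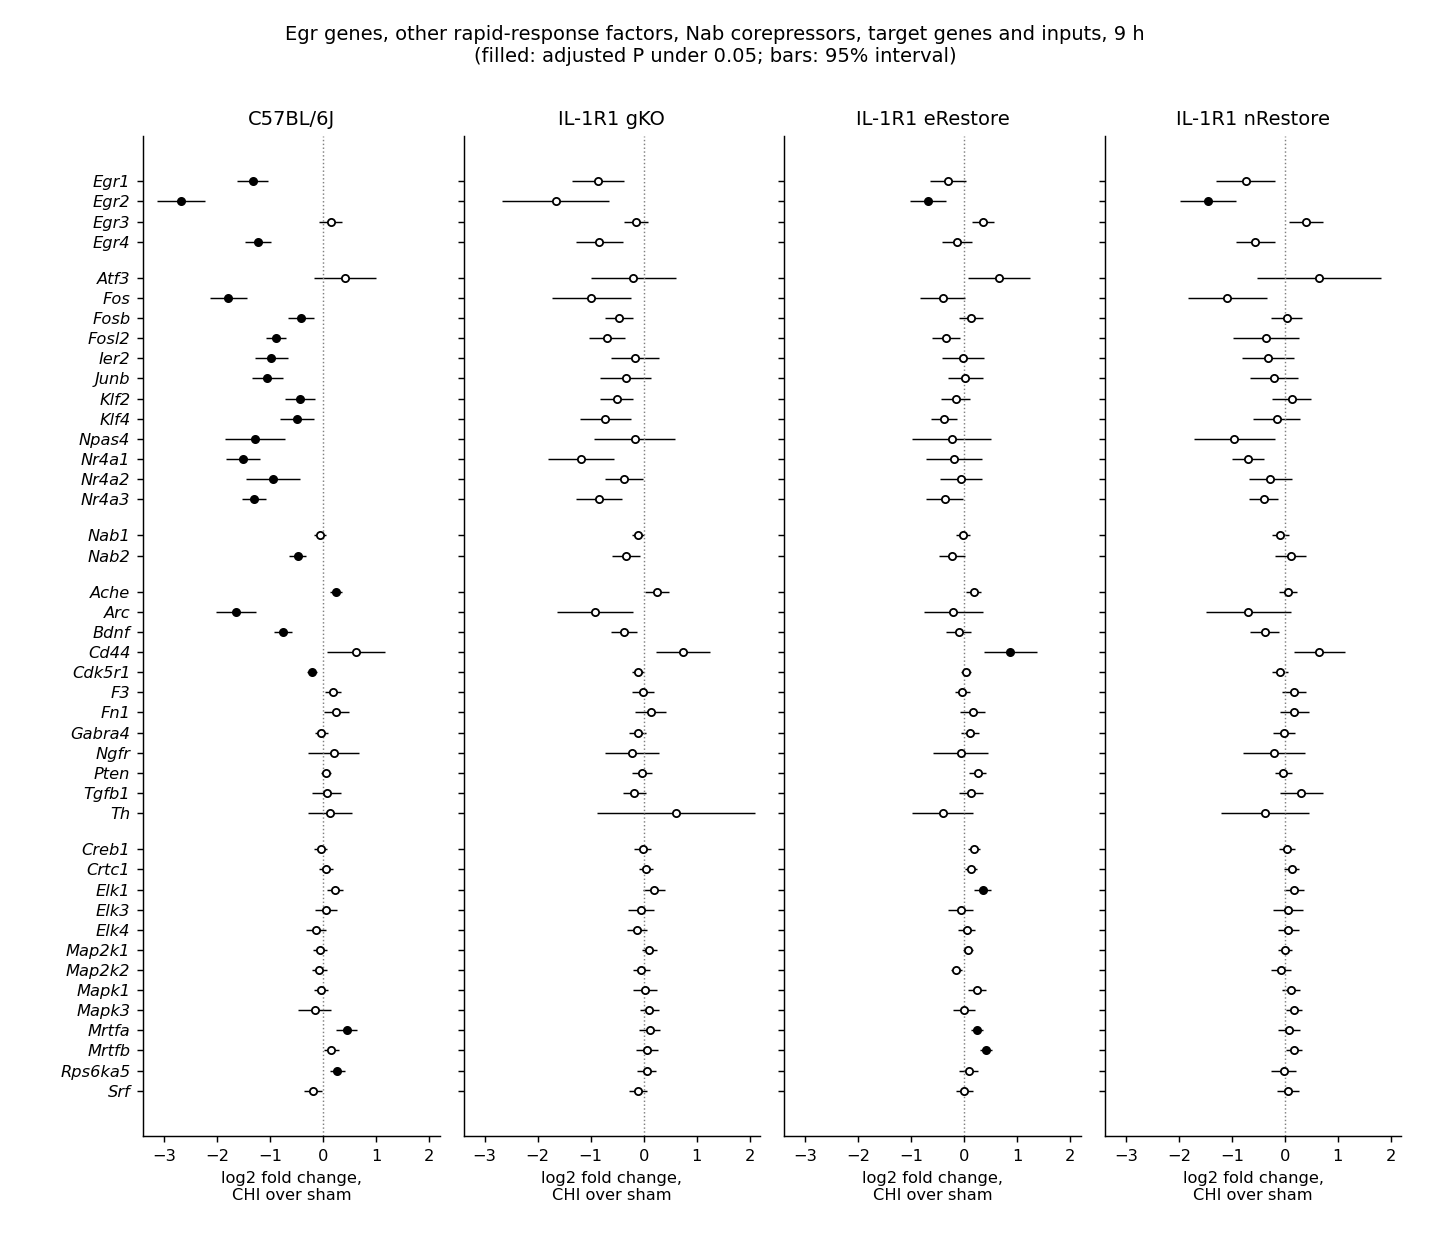
Fitted log2 fold change of CHI over sham at 9 h with its 95% interval for the Egr genes, the other rapid-response transcription factors, the Nab corepressors, genes described as Egr targets and genes upstream of Egr transcription, in 4 strains. Filled points have an adjusted P under 0.05; in C57BL/6J mice they cover 11 of the 12 other rapid-response factors, all below 0.

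Markers of the main brain cell types were present in every mouse, and their summed levels overlapped between CHI and sham mice in all strains at 9 h. The 5 neuronal markers summed to 5470 to 7530 TPM in C57BL/6J CHI mice and 5690 to 7330 in sham mice at 9 h. A sum is weighted to its most abundant gene, so overlap of sums says little of the other markers. Over all mice Snap25 had a median of 3610 TPM among the neuronal markers and Aldoc 802 among the astrocyte markers. Gfap, another astrocyte marker, was called higher in C57BL/6J CHI mice at 9 h, as given above. Between C57BL/6J CHI and sham mice at 9 h the mean log2 sum differed by −0.33 for the 4 microglial markers and by 0.41 for the striatal markers. Both had overlapping ranges, and their part in the result was not tested. Choroid plexus markers, which depend on what a dissected hemisphere holds, ran from 4.76 to 2500 TPM after CHI and 16.5 to 5950 after sham surgery. Total estimated counts ran from 14857985 to 57355676 per mouse, with a median of 20258935.5, and no 2 mice had identical values. The sex-linked genes Xist and Ddx3y matched the labelled sex in all but 2 of the 200 mice. The exceptions, an IL-1R1 eRestore sham mouse at 24 h (replicate 4) and an IL-1R1 nRestore CHI mouse at 72 h (replicate 6), were labelled male and had Xist RNA and no Ddx3y; leaving both out changed no call of a member.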

How the data were processed

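One hemisphere per mouse was profiled by paired-end sequencing of poly(A) RNA. The authors trimmed the reads and used STAR (GRCm39) for alignment and Salmon for gene-level quantification, in the nf-core/rnaseq workflow; the annotation release and the strand setting are not given in the sources used here. The deposited tables hold estimated counts per gene, which need not be whole, and the authors' TPM, which corrects for transcript length and library size. Total estimated counts ran from 14857985 to 57355676, which sets the counting error.

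Estimated counts were rounded and tested with edgeR's quasi-likelihood test (edgeR 4.0.16, limma 3.58.1, R 4.3.3) after TMM scaling, with robust dispersions, keeping genes that reached 10 counts in a number of mice no smaller than the smallest group. Sex and age were covariates; age was left out of comparisons of levels between times. CHI was compared with sham within strain and time and over all strains, and interactions gave strain, time and sex differences. P values were Benjamini-Hochberg adjusted over all genes tested, with a threshold of 0.05. Shares of all genes called are at this adjusted threshold. The share of all genes at an unadjusted P under 0.05 is not given, so counts at an unadjusted P have no background beside them. CPM is TMM-normalised, and log2 levels are edgeR's log2 CPM with a prior count of 0.5, which is scaled to library size. Intervals are the estimate ± 1.96 SE. DESeq2 1.42.0, other scalings, filters and covariates, single experiments and fits without 1 sham mouse were alternatives.

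The members and gene lists were chosen with earlier results of these data known. The ratio to Egr3, the list of injury genes and the fits without 2 mice whose sex-linked genes go against their label were added after the data were seen. Both Nab genes were named, and of each other list the 4 genes with the smallest P in C57BL/6J mice at 9 h. The labels place each sample in 1 group, and each sample is a separate mouse. On simulated counts of the 9 h C57BL/6J comparison (16743 genes), log2 changes of −2, −1, 1 and 2 were recovered in 100, 100, 96 and 98% of 50 genes each, with 3 false calls. The changed genes were drawn from those with a mean of at least 50 counts. The simulated mice carried no effect of experiment, sex or age, so these rates do not cover such effects.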

Additional observations from a re-analysis of the deposited data

Results flagged for a closer look

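In C57BL/6J mice the CHI effect on 3 members differed between times by the interaction test of edgeR. The 9 h effect minus the 24 h effect was −2.3141 for Egr2, −1.0958 for Egr1 and −1.0103 for Egr4 on the log2 scale, and the 9 h effect minus the 72 h effect was −2.9594, −1.4749 and −1.3972. The adjusted P values stand beside these contrasts in the report. Mice at 9 h came from other experiments and another time of day than the later mice, so that these cannot be told apart from time after surgery.

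In 3 of 64 checks of 1 mouse against its group, the lowest mouse stood apart by Dixon's criterion, which chance alone meets in about 1 group in 20. They were an IL-1R1 eRestore sham mouse at 72 h with 124 CPM of Egr1, and, in the IL-1R1 gKO sham group at 24 h, the lowest value of Egr2, 2.2 CPM, and of Egr4, 7.5 CPM.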

How the results depend on the processing

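In C57BL/6J mice at 9 h the calls of Egr1, Egr2 and Egr4 were kept under each alternative run. Over all comparisons and settings other than leaving out 1 sham mouse, 4 called values lost their call, while 18 of 999 values that were not called became so; with 1 sham mouse left out, 23 of 28 called values kept their call and 5 lost it. No called value changed sign. Without a filter on low counts the number of members called was 1 in C57BL/6J and 1 in IL-1R1 eRestore mice at 24 h, 4 in IL-1R1 nRestore mice at 9 h, and, between sham mice at 24 h, 1 for IL-1R1 gKO and 3 for IL-1R1 nRestore against C57BL/6J. DESeq2 called 2 at 9 h in IL-1R1 gKO and 2 in IL-1R1 eRestore mice. With experiment in place of age 1 was called in IL-1R1 gKO mice at 9 h, and in 1 fit of all time points 1 there and 2 in IL-1R1 nRestore mice. The largest experiment alone gave 0 calls in IL-1R1 eRestore mice at 9 h, with fewer mice. Leaving out 1 sham mouse gave 0 to 2 calls in IL-1R1 eRestore mice and 0 to 1 in IL-1R1 nRestore mice at 9 h; 2 were called without IL-1R1 eRestore sham replicate 6, where Egr3 passed (adjusted P = 0.0218). The share of all genes called under each alternative is not given here, so these counts have no background beside them. Where not stated, the cause was not tested. The groups held 4 to 6 sham mice, whose spread limits the size of difference that can be detected. No paired analysis was possible because the replicate numbers were given in accession order and pair no mice.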
